A study of Astatotilapia calliptera and Pundamilia nyererei and Oreochromis niloticus with 31 samples.

Results

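Small RNAs from testes of Nile tilapia (Oreochromis niloticus, ON) were compared with those from its ovaries, family by family, over the transposable element (TE) families of the ON genome. The members are the families of the ON table with a value other than 0 in at least 1 library. These were 829 of the 845 families listed, the other 16 being listed at 0 in every library. They are 829 of the 3653 family rows listed in the 5 tables of the series, and the comparison uses 6 of its 31 libraries. The series covers gonads of 6 East African cichlid species and muscle of 1 of them, and ON stands in it as the outgroup to the lake radiations. Both ON groups are wild-type organs with no treatment given: 3 libraries are from testes and 3 from ovaries, each from its own individual. ON tissue was obtained frozen from an aquaculture institute, the ages of the fish were not given, and some ovary libraries of the study failed its quality control and are not analysed here. The study asked whether small RNAs that map to TEs differ between testes and ovaries. It compared the families of each TE class by rank-sum tests and reported no difference that was consistent over the species. By other measures it reported differences between testes and ovaries, also in ON, among them in the length of small RNAs and the genomic sites producing them. It also reported a sign of small RNAs produced consecutively from a transcript in testes of all species, clear among ovaries only in Astatotilapia calliptera. The comparison here is of single families within ON, which is another measure.

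TEs are stretches of DNA that copy or move themselves within a genome, and copies with a common ancestor form a family. In animal gonads, Piwi proteins carry piRNAs, small RNAs longer than microRNAs, which pair with TE transcripts and direct their cleavage or the silencing of TE copies. Cleavage of a TE transcript can itself yield a new piRNA, so piRNAs of a family can be amplified while that family is transcribed. Which families are targeted can differ between male and female germlines.

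The measurements are reads of 24 to 35 nucleotides, the size range of piRNAs, counted over each TE family. The authors deposited 1 value per family and library, a regularised log (rlog) on a log2 scale. A difference of 1 on this scale is a fold of 2. The rlog transformation pulls differences towards 0 where reads are few, and its size factors set the libraries to a common centre, so a value shows a family's level relative to the other families and not the total amount of TE-mapping small RNA. Values are the mapped reads of a family, not corrected for its length or number of copies, so a rank among families is not a rank per copy. Reads with too many positions in the genome were not kept by the authors, and the values do not tell reads of either strand apart. In whole organs, fewer cells of a type and less RNA per cell cannot be told apart, and the table holds no gene, so the organ labels could not be checked against marker genes. Families carry only the identifiers that RepeatModeler, a program that finds repeats without a reference library, gave them. The table does not pair them with a TE name or class, so no role is given for any family.

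The sequencing depth is not held in the table and is unknown here for single families. According to the mapping statistics of the study, the ovary libraries held fewer reads of the piRNA size range than the testis libraries, and the part of this in the differences was not tested. Replicates were close to each other and organs were apart. Spearman's rho over the families tested, which share library and depth within each pair, was 0.995 to 0.997 between testis libraries, 0.990 to 0.991 between ovary libraries and 0.948 to 0.961 between a testis and an ovary library. Of the families tested, 5 to 8 differed by at least 1 on the log2 scale between a pair of testis libraries and 8 to 15 between a pair of ovary libraries, against 108 to 153 between organs. The first principal component carried 81.5% of the variance, with the 3 testis libraries on one side and the 3 ovary libraries on the other. The second carried 7.66% and set ovaries replicate 3 against ovaries replicate 2.

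Ovaries replicate 3 stood apart from every other library, most of all in 1 family. A single family, rnd-1_family-9, held 44.0% of its summed linear values, against 21.2% in ovaries replicate 1, 12.4% in ovaries replicate 2 and 10.8% to 14.9% in the testes. Its other values did not stand apart to this degree. With that family left out, its 10 highest families still held 30.1% of the sum, against 20.2% to 23.8% in the other libraries. In this library, 4 families were at least 1 higher than in both other ovary libraries, and 3 families at least 1 lower. Named after their values were seen, the 4 were rnd-1_family-9, rnd-6_family-1598, rnd-5_family-5674 and rnd-5_family-1325. For many of the means and differences below, the value without this library is given beside it.

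Of the 829 members, 717 reached a mean linear value of 10 (3.32 as log2) and were tested with limma. The other 112 held at most 0.0363% of the summed values of any library, and 30 of them had no overlap between testes and ovaries, beside 66.2% of the families tested. Their median absolute difference was 0.15 on the log2 scale. Mean levels of the families tested ran between 3.33 and 17.51 on the log2 scale, with a median of 8.37.

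In the deposited values, more than every second TE family tested differed between ON testes and ON ovaries, some higher in testes and some lower. At an adjusted p under 0.05 (limma, Benjamini-Hochberg adjustment over all 717 families), 212 families were higher in testes (29.6% of those tested) and 206 were lower (28.7%), 418 in all (58.3%). Relative to the TE-mapping total, here the sum of a library's linear values, 311 were called in all. Without testes replicate 2, 353 were called. Both numbers are fewer than every second family. The limma p-values relative to the TE-mapping total are not comparable with the others. For rnd-1_family-856 the limma adjusted p was 9.32e-23 there, against 0.00108 as deposited, with 3 libraries per organ. Counts of calls under that scaling are therefore only descriptive. The nearly even split belongs to the common centre of the deposited values: relative to all reads of the piRNA size range 312 families were higher and 110 lower, and relative to the TE-mapping total 254 were higher and 57 lower. At an unadjusted p under 0.05 the number was 452 for the deposited values. Library values of testes and ovaries did not overlap for 475 families (66.2%), with testes above for 244 and below for 231. Both held for 409 families: 9 called families overlapped, and 66 families were separated without being called.

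**Figure D1:**
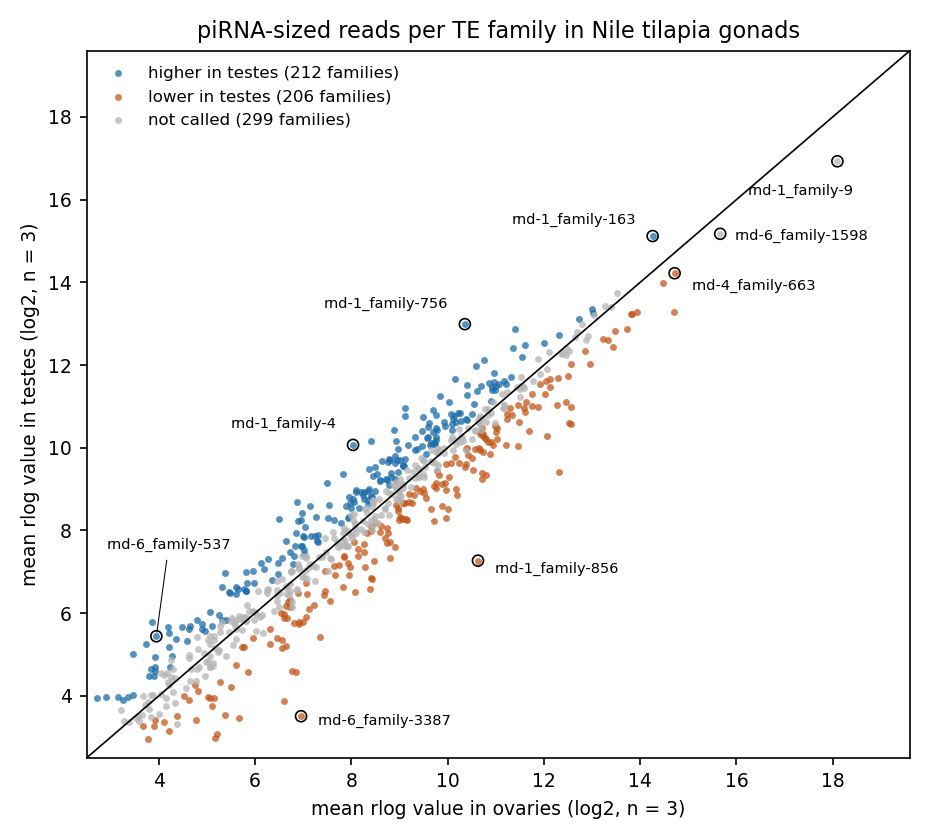
Each point is 1 of the 717 TE families tested, with its mean rlog value in 3 testis libraries (vertical axis, log2) against its mean in 3 ovary libraries (horizontal axis, log2). The line marks equal values, circles mark the families named in the text, and the 212 families higher and 206 families lower in testes lie along both sides of the line over the whole range of levels.

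Most of these differences were of less than 2-fold. The median difference (testes minus ovaries, log2) was 0.72 over the families called higher (1.64-fold) and −0.73 over those called lower (1.66-fold). Of the 418 families called, 295 differed by less than 1 on the log2 scale, and the smallest difference called was 0.24. By at least 1, 57 families were called higher in testes and 66 lower, and by at least 2, 2 were called higher and 9 lower. Over all families tested, the 5th and 95th percentiles of the difference were −1.29 and 1.09. For the 299 families not called, the 95% interval of the difference lay within 0.5 of 0 for 153 and within 1 for 287, and it reached beyond 1 for the other 12. These sizes and their balance between directions depend on the common centre of the deposited values. Relative to all reads of the piRNA size range every difference shifted up by 0.29. Relative to the TE-mapping total, which was by far the largest in ovaries replicate 3, the shift was 0.40.

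The 2 families with the largest rise in testes carried first-round identifiers and were far from overlapping. rnd-1_family-756 had rlog values of 12.88, 12.70 and 13.38 in testes, against 10.32, 10.31 and 10.44 in ovaries. Every testis library was above every ovary library, and the ovary libraries were within 0.14 of each other. It averaged 12.99 ± 0.35 in testes and 10.36 ± 0.076 in ovaries (SD, n = 3 each), a difference of 2.63 on the log2 scale (6.19-fold, SE 0.16, limma adjusted p = 4.77e-06). Its place among the 829 members by level was 17th in testes and 159th in ovaries, and it held 0.743% to 1.11% of the summed values in testes and 0.0822% to 0.123% in ovaries.

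rnd-1_family-4 had rlog values of 10.34, 10.23 and 9.64 in testes, against 8.02, 8.08 and 7.996 in ovaries. Testes replicate 3 was the lowest testis library and was still well above the ovary libraries. The difference was 2.03 on the log2 scale (4.09-fold, SE 0.17, limma adjusted p = 1.64e-05), between means of 10.07 ± 0.37 in testes and 8.03 ± 0.044 in ovaries (SD, n = 3 each). Its place by level was 187th in testes and 396th in ovaries.

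The families that fell most in testes had the larger spread on the ovary side. rnd-6_family-3387 had rlog values of 3.67, 3.48 and 3.37 in testes, against 7.57, 7.02 and 6.27 in ovaries. The testis values lay at the bottom of the range tested, near the minimum of 3.32, while the ovary values were in the lower part of the middle range and ran over 1.30. It averaged 3.51 ± 0.15 in testes and 6.95 ± 0.65 in ovaries (SD, n = 3 each), a difference of −3.45 on the log2 scale (10.9-fold lower in testes, SE 0.29, limma adjusted p = 1.84e-05). This was the widest difference of any family called. With a pseudocount of 10 added to the linear values the difference was −2.65, and without ovaries replicate 3 it was −3.79.

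rnd-1_family-856 had rlog values of 7.25, 7.29 and 7.26 in testes, against 8.89, 11.63 and 11.37 in ovaries. The 3 testis libraries were nearly equal, ovaries replicate 1 was far below the other two ovary libraries, and no testis value reached the lowest ovary value. Its range of 2.75 in ovaries was the widest of any family tested in that organ. The means were 7.27 ± 0.020 in testes and 10.63 ± 1.51 in ovaries (SD, n = 3 each), and the difference was −3.36 on the log2 scale (10.3-fold lower in testes, SE 0.59, limma adjusted p = 0.00108). Without ovaries replicate 1 the difference was −4.23, without ovaries replicate 2 it was −2.86, and without ovaries replicate 3 it was −2.99. It was placed 459th by level in testes and 137th in ovaries.

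**Figure D2:**
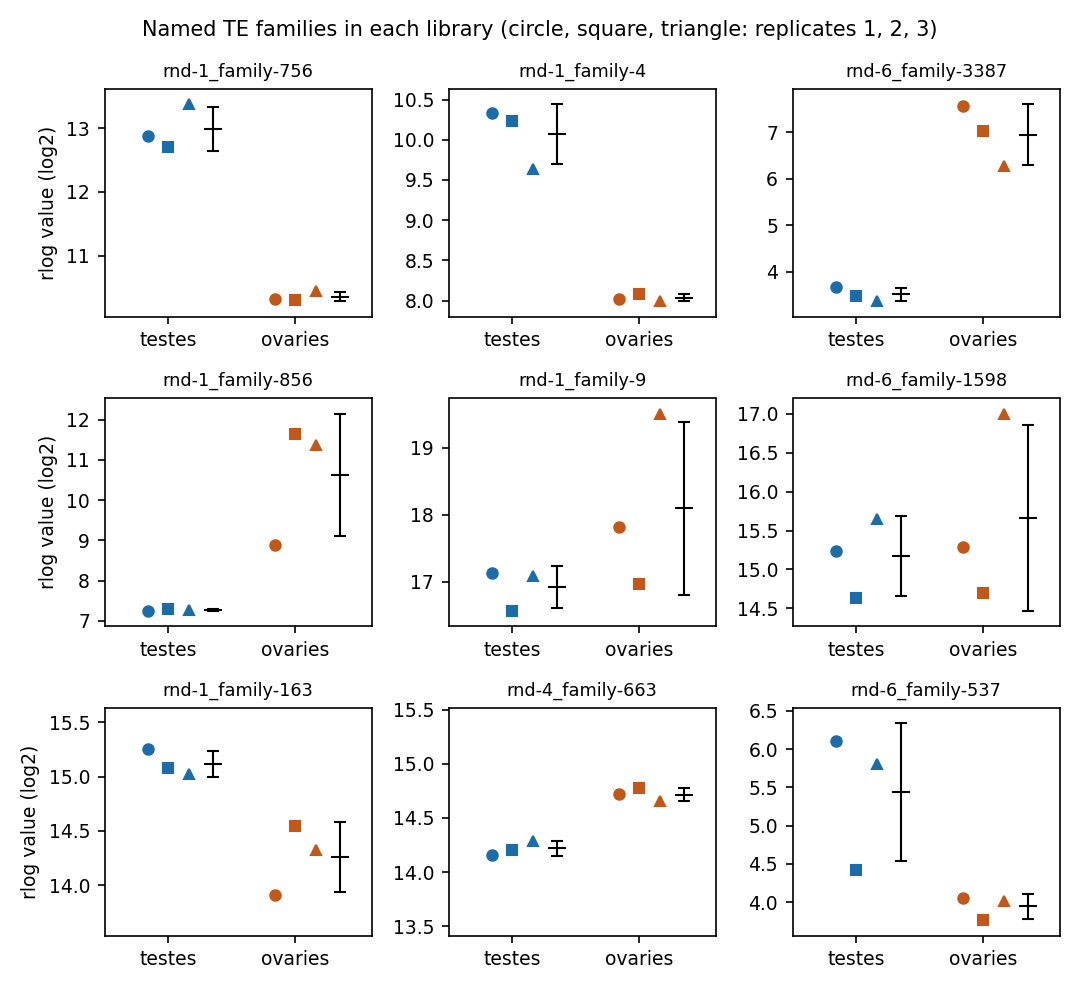
Rlog values (log2) of the 9 families named by rule, 1 panel a family, in each of 3 testis libraries and 3 ovary libraries. Symbols are libraries, horizontal marks are means and bars are 1 SD, and each panel has its own axis that does not start at 0. The organs separate in 7 panels and overlap for rnd-1_family-9 and rnd-6_family-1598, in which ovaries replicate 3 is the highest library.

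The most abundant family was the same in all 6 libraries, and its difference between organs was not called. rnd-1_family-9 had rlog values of 17.13, 16.57 and 17.08 in testes, against 17.82, 16.96 and 19.51 in ovaries. Ovaries replicate 2 lay within the range of the testes, and ovaries replicate 3 was far above every other library. The difference was −1.17 (SE 0.55, 95% interval −2.41 to 0.075, limma adjusted p = 0.0959), between means of 16.93 ± 0.31 in testes and 18.10 ± 1.30 in ovaries (SD, n = 3 each). Without ovaries replicate 3 it was −0.46 (limma adjusted p = 0.168), and without ovaries replicate 2 it was −1.74 (limma adjusted p = 0.0137), past the threshold. As a share of the summed linear values it was 14.9%, 10.8% and 14.5% in testes, against 21.2%, 12.4% and 44.0% in ovaries.

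By mean level, the second most abundant family in both organs was rnd-6_family-1598, which followed the same order of ovary libraries. In single libraries, rnd-1_family-163 was above it in testes replicates 1 and 2, and rnd-4_family-663 in ovaries replicate 2. rnd-6_family-1598 had rlog values of 15.23, 14.64 and 15.65 in testes, against 15.29, 14.70 and 17.00 in ovaries. Apart from ovaries replicate 3 the organs covered the same range. The difference of −0.49 was not called (SE 0.51, 95% interval −1.65 to 0.67, limma adjusted p = 0.436), and without ovaries replicate 3 it was 0.18 (limma adjusted p = 0.598).

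Of the other families that were at least 1 higher in ovaries replicate 3, rnd-5_family-5674 had rlog values of 10.50, 10.40 and 10.80 in testes, against 12.15, 12.22 and 13.32 in ovaries. All ovary libraries were above the testes, and its difference was −1.99 (limma adjusted p = 0.000294), or −1.61 without ovaries replicate 3 (limma adjusted p = 2.51e-05). rnd-5_family-1325 was near the bottom of the range tested, with 3.60, 3.21 and 3.16 in testes, against 3.32, 4.08 and 5.74 in ovaries. Its organs overlapped and its difference of −1.06 was not called (limma adjusted p = 0.0992), nor was that of −0.38 without ovaries replicate 3 (limma adjusted p = 0.241).

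In the deposited values the next most abundant families differed between organs by less than 2-fold, with the organs separated. rnd-1_family-163, placed 3rd by level in testes and 6th in ovaries, had rlog values of 15.26, 15.08 and 15.02 in testes, against 13.91, 14.54 and 14.32 in ovaries. Testes were above ovaries in every library, by 0.86 on the log2 scale between the means (1.82-fold, SE 0.17, limma adjusted p = 0.0023). rnd-4_family-663, placed 4th in testes and 3rd in ovaries, had 14.16, 14.21 and 14.29 in testes, against 14.72, 14.77 and 14.65 in ovaries. It was lower in testes by a difference of −0.49 (1.41-fold lower, SE 0.11, limma adjusted p = 0.00457), with the organs separated. This call depends on the scaling between libraries. Relative to all reads of the piRNA size range the difference was −0.21 (limma adjusted p = 0.281). Relative to the TE-mapping total, where p-values are not comparable with the others, it was −0.092 (limma adjusted p = 0.85). With rnd-1_family-9 left out of that total it was −0.34 (limma adjusted p = 0.0472).

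Testis libraries were in general the more alike. The SD over 3 replicates had a median of 0.111 over the families tested in testes and 0.170 in ovaries, and it was the larger in ovaries for 496 families and in testes for 221. The family with the widest range in testes was rnd-6_family-537, with rlog values of 6.10, 4.42 and 5.80 in testes, against 4.06, 3.76 and 4.02 in ovaries. Testes replicate 2 was far below the other testis libraries and only slightly above the highest ovary library. The difference was 1.49 (2.81-fold, SE 0.38, limma adjusted p = 0.00762), between means of 5.44 ± 0.90 in testes and 3.95 ± 0.16 in ovaries (SD, n = 3 each).

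The families at the top of each organ's ranking were in large part shared. Of the 10 families with the highest mean in testes, 6 were also among the 10 highest of ovaries, and of the 50 highest, 38 were. Within organs the ranking held more closely, with 8 families among the 10 highest of all 3 testis libraries and 9 among those of all 3 ovary libraries. Of the 10 highest families of testes, 2 were called higher and 3 lower in testes. Of the 10 highest of ovaries, 1 was called higher and 7 lower in testes, beside 29.6% and 28.7% of all families tested. A high mean in ovaries itself favours a family that is lower in testes, so nothing is read from these counts.

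The identifiers name the round of RepeatModeler in which a family was found, a feature that did not enter the choice of families. In the first round the program counts short words that recur in a small sample of the genome, and in the later rounds it compares ever larger samples of the genome with themselves. Over the 375 first-round families tested, 123 (32.8%) were called higher in testes and 93 (24.8%) lower, with a median difference of 0.089 on the log2 scale, against 0.0013 over all 717. Over the 342 families of rounds 2 to 6, 89 (26.0%) were called higher and 113 (33.0%) lower, with a median of −0.062. The share called in either direction was 57.6% in the first round and 59.1% in the later ones, both close to the 58.3% of all families.

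Among the later rounds, the split by direction in the deposited values was not uniform, beside 29.6% higher and 28.7% lower over all families tested. Of 55 families of round 4, 10 were called higher and 20 lower in testes (median difference −0.14), and of 166 of round 5, 42 were higher and 60 lower (median −0.11). Round 6 had 34 of 100 higher and 26 lower, with a median of 0.0028 close to the 0.0013 of all families. Rounds 2 and 3 held 5 and 16 families tested, with 0 and 3 called higher and 2 and 5 called lower. Differences called with at least 1 on the log2 scale were nearly even in the first round, with 26 families higher and 27 lower in testes. In round 5 they were 13 higher and 20 lower, and in round 6 they were 11 higher and 9 lower. The direction of these splits depends on the scaling. Relative to all reads of the piRNA size range, round 4 had 19 families higher and 9 lower and round 5 had 66 higher and 35 lower. Relative to the TE-mapping total round 4 had 13 higher and 3 lower and round 5 had 51 higher and 19 lower. With rnd-1_family-9 left out of that total, round 4 had 15 higher and 19 lower and round 5 had 59 higher and 50 lower. The counts describe the groups, and no test between rounds was made.

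**Figure D3:**
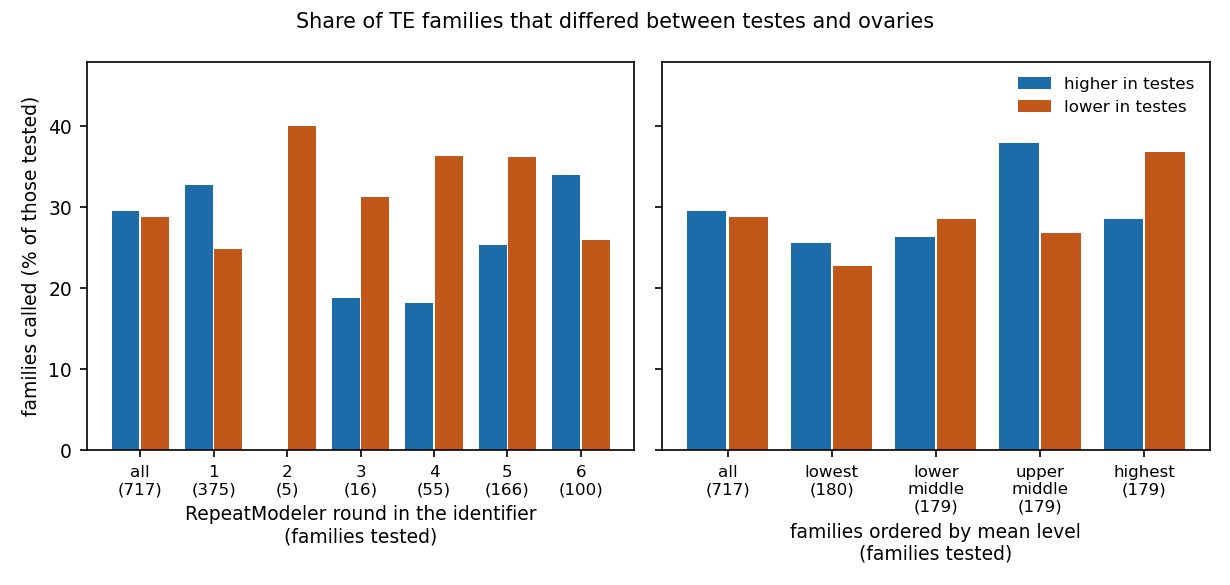
Share of the families tested in each group that was called higher or lower in testes (vertical axis, %), by RepeatModeler round (left panel) and by mean level over the 6 libraries (right panel, 4 groups of nearly equal size), with all 717 families at the left of each. The number of families tested is under each group. For the deposited values shown, bars for higher exceed those for lower in rounds 1 and 6 and in the lowest and upper middle groups, and bars for lower exceed those for higher in rounds 2 to 5 and in the lower middle and highest groups, while relative to all reads of the piRNA size range higher exceeds lower in each group except round 2, with 1 of each.

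By level, calls were more frequent where values were higher and replicates closer. The families tested were put into 4 groups of nearly equal size by their mean level. In the lowest group (mean 3.33 to 6.28 on the log2 scale) 48.3% were called, and in the highest (mean 10.11 to 17.51) 65.4% were, beside 58.3% overall. The median SD over replicates was 0.143 in testes and 0.245 in ovaries in the lowest group, against 0.0706 in testes and 0.139 in ovaries in the highest. The median absolute difference was much the same, 0.49 in the lowest group and 0.46 in the highest. The split by direction was not the same at every level. In the upper middle group 68 of 179 families were called higher and 48 lower in testes (median difference 0.14), and in the highest 51 of 179 were higher and 66 lower (median −0.13), beside 29.6% higher and 28.7% lower over all families. For the highest group this direction depends on the scaling, with 68 higher and 32 lower relative to all reads of the piRNA size range. It had 49 higher and 11 lower relative to the TE-mapping total, and 62 higher and 51 lower with rnd-1_family-9 left out of that total. The lowest group had 46 of 180 higher and 41 lower, and the lower middle group had 47 of 179 higher and 51 lower.

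How far TE-mapping small RNAs were concentrated on few families varied more among ovary libraries than among testis libraries. The 10 highest families of each library held 32.3%, 27.8% and 33.5% of the summed linear values in testes, against 38.5%, 32.1% and 60.1% in ovaries. Ovaries replicate 2 lay within the range of the testes and ovaries replicate 3 was far above all. The means were 31.2 ± 3.0% in testes and 43.6 ± 14.7% in ovaries (SD, n = 3 each), a difference of −12.4 percentage points that did not hold against this spread (exact permutation test, two-sided, p = 0.3). With 3 libraries against 3, the smallest p this test can give is 0.1. Without ovaries replicate 3 the ovary mean was 35.3%.

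The number of families needed to reach 50% of the summed values was 34, 39 and 31 in testes, against 24, 32 and 2 in ovaries. Only ovaries replicate 2 reached the testis values. The mean was 34.7 in testes and 19.3 in ovaries, or 28 in ovaries without replicate 3. For 90% the number was 248, 254 and 243 in testes, against 226, 232 and 163 in ovaries, with no overlap (exact permutation test, two-sided, p = 0.1, the smallest possible). The mean was 248 in testes and 207 in ovaries, or 229 in ovaries without replicate 3. Leaving rnd-1_family-9 out, a step added after the data were seen, 50, 51 and 44 families reached 50% in testes, against 43, 43 and 34 in ovaries, again with no overlap (exact permutation test, two-sided, p = 0.1), and the ovary mean without replicate 3 was 43. Over 12 such library values tested, the adjusted exact p lay between 0.3 and 0.9.

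**Figure D4:**
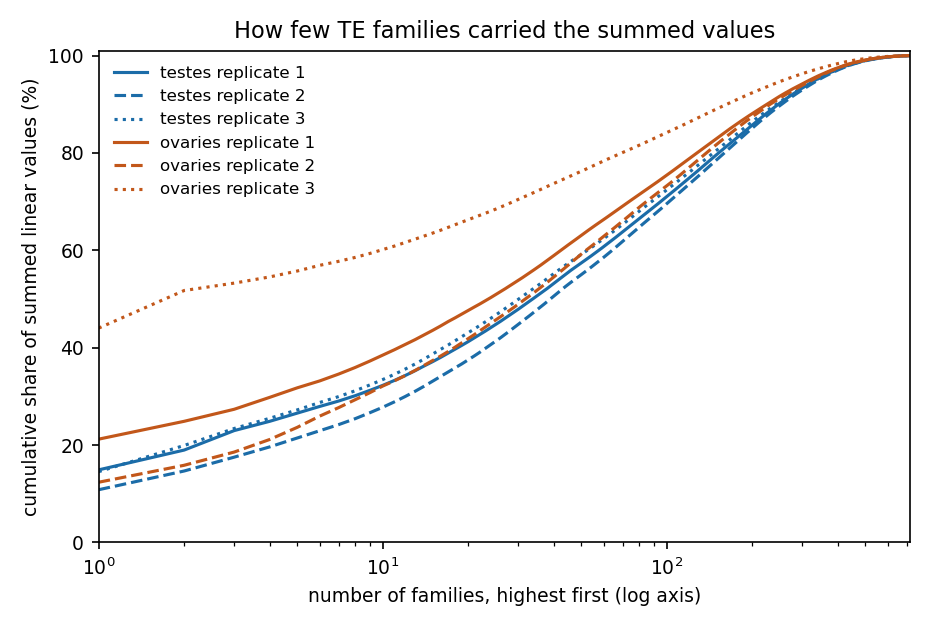
Cumulative share of the summed linear values (vertical axis, %) over the families tested, ranked from the highest in each library (horizontal axis, log scale), with 1 line for each of the 3 testis and 3 ovary libraries. Ovaries replicate 3 starts at 44.0% with its first family, the other libraries start between 10.8% and 21.2%, and the lines draw together towards 100%.

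As groups, the families called higher in testes held 29.9%, 31.2% and 27.9% of the summed values in testes, against 15.1%, 16.3% and 9.82% in ovaries. Those called lower held 24.6%, 26.6% and 25.3% in testes, against 36.8%, 42.6% and 23.6% in ovaries. Since these families were chosen on the same values, the shares only describe how much of the TE-mapping small RNA the calls cover. In ovaries replicate 3 both shares are the lowest of the ovary libraries, beside the 44.0% held by rnd-1_family-9.

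The share of first-round families was 50.4%, 47.8% and 47.6% in testes, against 49.3%, 46.5% and 62.7% in ovaries. The organs overlapped, and the difference of −4.19 percentage points did not hold (exact permutation test, two-sided, p = 0.7). It turned to 0.75 without ovaries replicate 3 and to 4.68 without rnd-1_family-9. Round 6 families held 16.4%, 16.2% and 18.0% in testes, against 14.6%, 14.3% and 14.8% in ovaries. Every testis library was above every ovary library (difference 2.27 percentage points, exact permutation test, two-sided, p = 0.1, adjusted exact p = 0.3). These are shares of a sum that includes rnd-1_family-9, which held 44.0% of it in ovaries replicate 3. The round 6 share without that family was not tested, so nothing is read from the separation.

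The level of the whole set of families cannot be read from these values. The median over the families tested was 8.38, 8.36 and 8.37 on the log2 scale in testes, against 8.38, 8.42 and 8.36 in ovaries, a difference of −0.020 (exact permutation test, two-sided, p = 0.4). The deposited values had been brought to this common centre by their size factors. Set instead relative to all reads of the piRNA size range, every difference shifted up by 0.29 on the log2 scale, and 312 families were called higher and 110 lower in testes, 73.9% of the calls higher against 50.7% as deposited. Set relative to the TE-mapping total, taken as the sum of a library's linear values, the shift was 0.40. Then 254 families were called higher and 57 lower (81.7% of the calls higher). These totals were 9.62e+05, 8.98e+05 and 9.56e+05 in testes, against 1.09e+06, 1.03e+06 and 1.69e+06 in ovaries. Their mean was 9.39e+05 in testes and 1.27e+06 in ovaries, or 1.06e+06 in ovaries without replicate 3. The shift and the calls without that library were not computed. With rnd-1_family-9 left out of the TE-mapping total, the shift was 0.15, with 268 higher and 156 lower (63.2% of the calls higher).

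**Figure D5:**
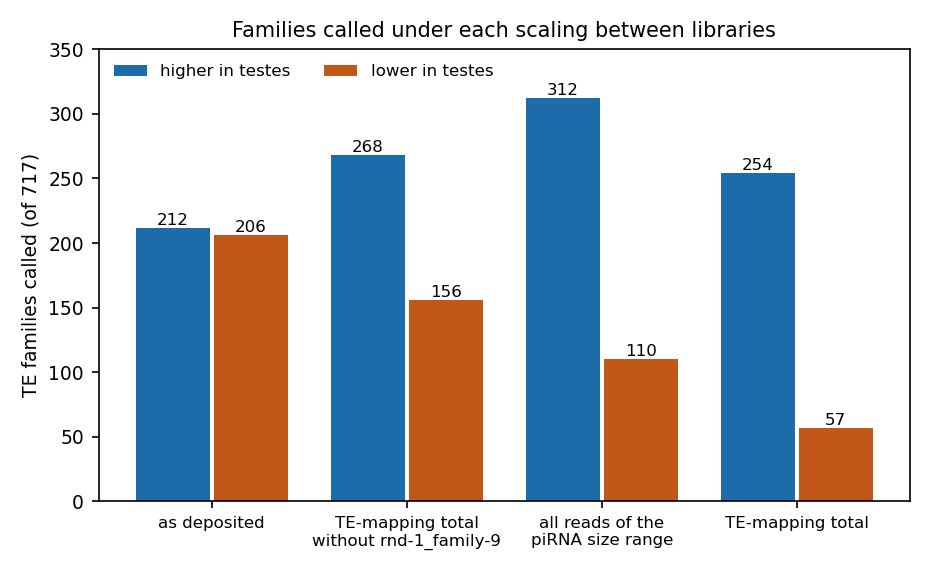
Number of the 717 families called higher or lower in testes (vertical axis) for 4 scalings between libraries. The counts are 212 higher and 206 lower for the deposited values, 268 and 156 for the TE-mapping total without rnd-1_family-9, 312 and 110 for all reads of the piRNA size range, and 254 and 57 for the TE-mapping total. For the last of these the limma p-values are not comparable with the others.

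The balance of higher and lower families depended on the scaling, while the order of the differences among families was the same in each, since a scaling shifts all families alike. Medians of rounds and level groups shift up with the rest: those of rounds 3, 4 and 5 and of the lower middle and highest level groups are negative in the deposited values and positive under each of these scalings. Their distance from the median of all families is the same in each, 0.088 above it for round 1, 0.14 below it for round 4 and 0.11 below it for round 5.

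Organ differences of other species can only be set beside these, since each table was normalised alone and the families are not matched between genomes. The AC values were normalised together with testes of Maylandia zebra and Tropheops sp. 'mauve' and with AC muscle. The ON and PN values were normalised with gonads of their own species only. The part of this in the numbers below was not tested. In Astatotilapia calliptera (AC), with 4 testis and 3 ovary libraries and the default annotation, 253 of 684 families were called (37.0%), and in Pundamilia nyererei (PN), with 4 testis and 2 ovary libraries, 229 of 609 (37.6%), beside 58.3% in ON. A difference of at least 1 on the log2 scale was seen for 17.4% of families in ON, 7.89% in AC and 10.7% in PN, whether called or not. The SD of the difference over families was 0.76 in ON, 0.62 in AC and 0.61 in PN. The most abundant family of a library held on average 13.4% of the summed values in testes and 25.9% in ovaries in ON, where ovaries replicate 3 had 44.0% and the ovary mean without it was 16.8%. In AC these were 2.61% in testes and 30.8% in ovaries, and in PN 4.55% in testes and 17.8% in ovaries. Whether a single library sets any of these AC and PN means was not tested. No test was made across tables, and the numbers of libraries differ.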

How the data were processed

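Small RNA libraries were made from 3 testes and 3 ovaries of ON. According to the study's methods and the submitters' processing notes, the authors trimmed adapters with cutadapt 1.15, kept reads of 24 to 35 nucleotides and mapped them to the ON genome with STAR 2.5.4b. Reads with several equally good positions were kept, up to a limit on their number, with 1 of them chosen at random, so related families can exchange reads. The authors counted reads over RepeatModeler families with featureCounts 1.6.0 and deposited rlog values on the log2 scale, made with DESeq2 (version not given in the sources used here). Counts cannot be recovered from rlog values, so no count test was run.

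Here, families with a linear mean of at least 10 were compared, testes minus ovaries, with limma 3.58.1 in R 4.3.3 (empirical Bayes, trend on the mean). The p-values were adjusted by Benjamini and Hochberg with a threshold of 0.05, and the fit was checked on simulated data. The simulated errors were normal and independent between families, so deviations shared by the families of a library were not covered. Library shares were computed from the values on the linear scale and are approximate, and they were tested by exact two-sided permutation of the 6 libraries. The labels do not say what a replicate is, and the study's methods describe separate fish of matched size. No sequencing batch is given. The software was scipy 1.17.1 for permutations, pandas 2.3.3 and numpy 2.4.6 for tables, and matplotlib 3.10.9 for plots, under Python 3.11.15.

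The members, groups and tests were chosen with earlier results of these data known. Families were named by rule: the 2 with the largest difference in each direction among those called and not overlapping, the 3 with the highest mean in each organ, and the one with the widest replicate range in each organ. Further families are marked as named after their values were seen. Alternatives were no minimum and a minimum of 100, pseudocounts of 1 and 10, other scalings, quantile normalisation, no mean trend, the replicate number as a block, and each library left out in turn. The scaling to all reads of the piRNA size range used the study's read totals, which are not reported. The TE-mapping totals are sums of the linear values of a library and not read totals. A TE-mapping total that leaves out rnd-1_family-9, and shares that leave it out, were added after the data were seen. No read sequences and no consensus sequences of the families were used.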

Additional observations from a re-analysis of the deposited data

How the results depend on the processing

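The number of families called in either direction ran between 311 and 427 over all alternatives, against 418 as reported, and between 353 and 427 with 1 library left out. The count of families higher in testes ran between 177 and 216 with 1 library left out and that of families lower between 176 and 211. Without ovaries replicate 3 they were 216 and 211. The count of families lower in testes fell to 110 relative to all reads of the piRNA size range and to 57 relative to the TE-mapping total. These scalings shift every difference up, by 0.29 and 0.40. They also move each library by its own amount, which changes the spread between replicates. The counts of families higher were 312 and 254, so the larger shift did not go with the larger count. The part of the spread in these counts was not tested. The limma p-values relative to the TE-mapping total are not comparable with the others, so its counts are only descriptive.

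The difference of the library medians, −0.020, turned to 0.059 with a minimum of 100, to 0.27 relative to all reads of the piRNA size range, to 0.38 relative to the TE-mapping total and to 0.13 relative to that total without rnd-1_family-9. With 1 library left out it ran between −0.033 and −0.0049. The difference in the share of the 10 highest families ran between −18.1 and −4.14 percentage points with 1 library left out. That of first-round families, −4.19, turned to 3.39 under quantile normalisation and to 4.68 without rnd-1_family-9, and ran between −7.37 and 0.75 with 1 library left out, the last being without ovaries replicate 3. rnd-6_family-1598 ran between −0.97 and 0.18, the last without ovaries replicate 3. The cause of these turns was not tested, apart from the scalings, which act on every family alike.

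Quantile normalisation makes library medians, ranked shares and the highest family equal by construction and gives no value for them. rnd-6_family-3387 and rnd-6_family-537 are under the minimum of 100 and have no value there.

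With the replicate block, 205 families were called higher and 209 lower, and rnd-1_family-9 passed the threshold (limma adjusted p = 0.0354). The numbers do not pair the samples by any label. Deviations of same-numbered testis and ovary libraries correlated at −0.081, 0.091 and 0.106, and not every library correlated best with its own number.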
